A study of Mus musculus with 4 samples.

Results

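To describe transcripts typical of other cells in regulatory T (Treg) cells sorted from mouse spleen, 10 marker genes were followed. Which cells the reads of these genes came from was not tested. The genes were taken by symbol from the deposited tables, 10 of 14193 genes with a value, each by its transcript row of highest mean. They fall into 3 sets. The B cell set was Cd79a, Cd79b and Cd22, the class II set was Cd74, H2-Aa, H2-Ab1 and H2-Eb1, and the macrophage set was C1qa, C1qb and Csf1r. The study measured 4 RNA-seq libraries from C57BL/6 mice. In 2 of them the gene Nsd2, a histone methyltransferase, was conditionally deleted (cKO), and the other 2 were wild type (WT). No age, treatment or Cre driver is given in the labels. Each library pooled RNA of at least 3 mice, so replicates are pools, and the spread between them may be partly technical.

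B cells carry a surface immunoglobulin whose signal runs through a pair of partner chains, encoded by Cd79a (Ig-alpha) and Cd79b (Ig-beta), and Cd22 dampens that signal. Class II molecules present peptides to CD4 T cells and are made mainly by B cells, dendritic cells and some macrophages, under the coactivator Ciita. Mouse T cells transcribe them little. C1q, the recognition part of the first complement component, is made largely by tissue macrophages, and Csf1r is the receptor through which macrophages and their precursors receive the survival signal Csf1. The spleen holds large numbers of B cells and of red pulp macrophages, which take up old red blood cells.

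Upstream sequences are shown for a feature that the choice of genes did not use, the shared motifs of class II promoters. RefSeq start-site windows (GRCm38.p6) were at hand for 5 of the 10 genes, and the 150 bases just before the start are printed for 4 of them, 5′ to 3′ on the gene's strand. Capitals mark GCAAC, the core of the X box, and CTGATTGG, the Y box, in the H2 genes. In Cd79a and C1qb they mark CAGGAAGT, a form of the binding sequence of ETS family factors, or its reverse complement ACTTCCTG. The motifs and their spacing limit were picked after the sequences were read. The window of Cd22, which is not printed, held none of these motifs.
H2-Aa (chr17:34287824-34287973, minus strand): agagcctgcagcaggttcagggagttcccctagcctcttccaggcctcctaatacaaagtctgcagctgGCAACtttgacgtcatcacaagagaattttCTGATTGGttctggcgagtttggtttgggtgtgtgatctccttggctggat
H2-Eb1 (chr17:34305717-34305866, plus strand): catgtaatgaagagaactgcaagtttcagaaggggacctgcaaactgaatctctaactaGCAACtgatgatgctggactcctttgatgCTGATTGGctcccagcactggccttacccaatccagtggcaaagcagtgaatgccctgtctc
Cd79a (chr7:24897347-24897496, plus strand): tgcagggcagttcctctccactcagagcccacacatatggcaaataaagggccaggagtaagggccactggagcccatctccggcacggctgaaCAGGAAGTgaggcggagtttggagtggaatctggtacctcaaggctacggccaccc
C1qb (chr4:136886201-136886350, minus strand): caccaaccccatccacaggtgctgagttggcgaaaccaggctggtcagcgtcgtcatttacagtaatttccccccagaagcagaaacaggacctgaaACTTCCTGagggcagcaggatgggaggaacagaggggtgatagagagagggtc

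Both H2 promoters held the X box core upstream of the Y box, with 30 bases between the starts of the motifs in H2-Aa and 29 in H2-Eb1. Over all 32851 RefSeq windows, searched on both strands over 250 bases upstream, CTGATTGG was found in 3.83% and GCAAC in 29.9%. The pair on one strand, at most 40 bases apart, was found in 0.122%, or 40 windows, among them that of H2-Oa. CAGGAAGT lay in the Cd79a and C1qb windows and in 2.69% of all windows. A match of letters is a description of the window and not evidence of binding.

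The libraries had about 19226500 and 21263000 reads (cKO replicates 1 and 2) and 19514000 and 19143500 reads (WT replicates 1 and 2), estimated from the steps between low values. The deposited unit is RPKM, read number per transcript length and per library size. Nsd2, the targeted gene, stood at 3.46 and 4.27 RPKM in the cKO libraries and at 6.82 and 7.44 RPKM in the WT libraries (limma log2 fold change -0.74, standard error 0.15, adjusted p = 0.9998). The deleted exons are not given in the labels, so a value over the whole transcript does not show how complete the deletion was. The Treg label held in every library: Foxp3, the lineage-defining factor, was at 145 and 113 RPKM in cKO and at 144 and 128 RPKM in WT. One library stood apart. In cKO replicate 1 macrophage and globin transcripts were higher than in the other 3 libraries, so results are given with and without it. In such bulk RNA, fewer cells of a type and less RNA per cell cannot be told apart.

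**Figure D1:**
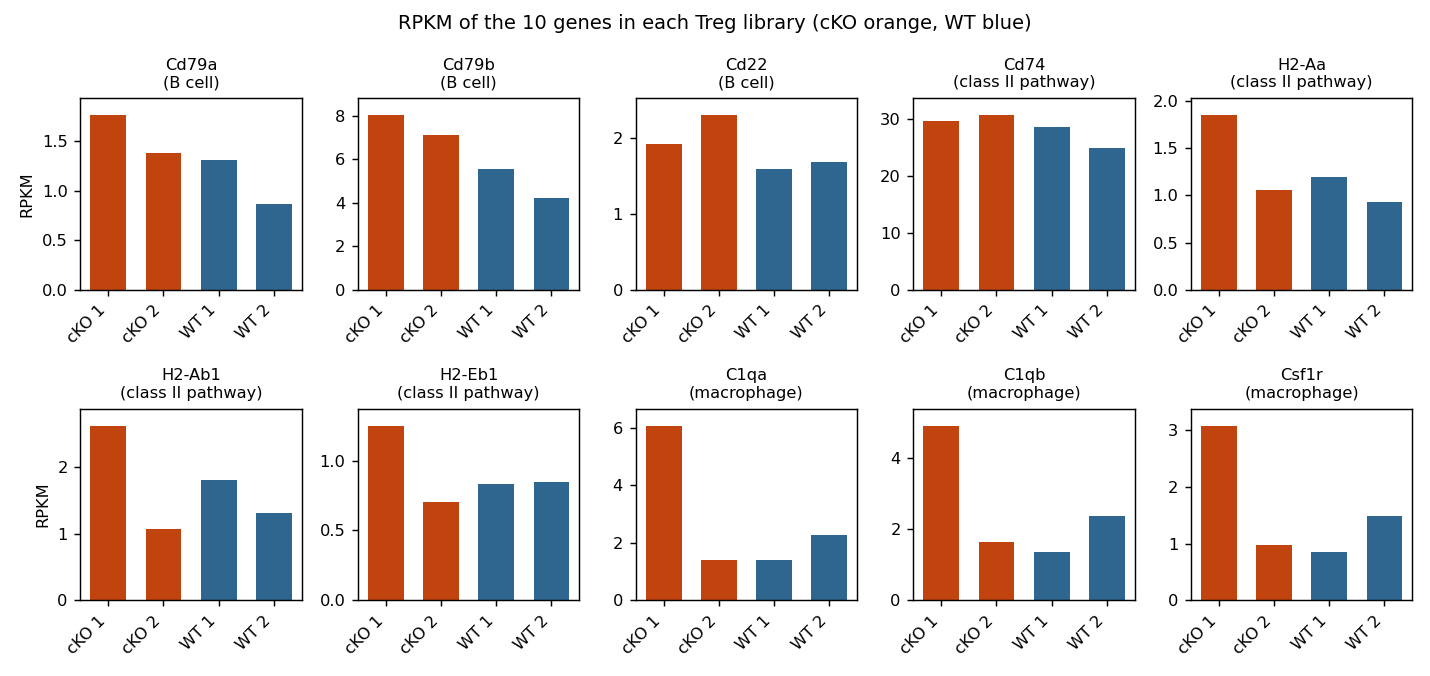
RPKM of each of the 10 genes (bars, axes from 0, 1 panel a gene) in cKO replicates 1 and 2 (orange) and WT replicates 1 and 2 (blue). C1qa, C1qb and Csf1r are far above the rest in cKO replicate 1, whereas Cd79a, Cd79b, Cd22 and Cd74 are higher in both cKO libraries than in both WT libraries.

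Cd79a, Cd79b and Cd22 were low in all 4 libraries and somewhat higher in both cKO libraries. Cd79b (chromosome 11, 106311341 to 106314562; gene positions are those of RefSeq on GRCm38.p6) was at 8.03 and 7.14 RPKM in cKO and at 5.56 and 4.23 RPKM in WT. Those values stood for about 185 and 182 reads in cKO and 130 and 97 reads in WT. The means were 7.59 ± 0.628 RPKM in cKO and 4.89 ± 0.942 RPKM in WT (SD, n = 2 each), a ratio of 1.55. Its partner chain Cd79a (chromosome 7, 24897497 to 24901858) was at 1.76 and 1.38 RPKM in cKO and at 1.31 and 0.866 RPKM in WT, on about 49 and 43 reads and 37 and 24 reads. The gap between the lowest cKO and the highest WT value of Cd79a was small against a counting error of 15.2% and 16.4% in those libraries. Cd22 (chromosome 7, 30865404 to 30880342) was at 1.92 and 2.30 RPKM in cKO and at 1.59 and 1.68 RPKM in WT.

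The partner chains stood in a similar proportion in all libraries. Cd79b over Cd79a was 4.55 and 5.17 in the cKO libraries and 4.24 and 4.88 in the WT libraries, a spread of 1.22-fold. Cd22 over Cd79a varied more, at 1.09 and 1.66 in cKO and 1.21 and 1.94 in WT, a spread of 1.79-fold. Summed over the B cell set, RPKM was 11.7 and 10.8 in cKO and 8.46 and 6.78 in WT. Cd79b made up most of this sum in every library. The groups did not overlap in the sum, and the ratio of its means was 1.48. Without cKO replicate 1 this ratio was 1.42. Cd3e, a chain of the T cell receptor complex, was 31.0 and 36.5 times Cd79b in cKO and 44.8 and 63.0 times Cd79b in WT, per length. Ighm, the mu heavy chain, was instead about as high as Cd3e, at 271 and 243 RPKM in cKO and at 291 and 204 RPKM in WT, while Cd3e averaged 256 RPKM over the 4 libraries. Which cells the Ighm reads came from was not tested.

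In the wider B cell list, 15 of 21 genes had a value, 9 reached the mean of 1 RPKM required for the test and 0 were called in either direction. The cKO pair was above the WT pair for 5 of the 9 and below it for 1, against 17.4% and 9.06% of all genes tested. The 5 include Cd79a, Cd79b and Cd22, already reported above, so they are not separate support. Cd72 and Ighd were the others above, Ralgps2 was below, and Pou2af1, Ighm and Igkc overlapped. Cd72, an inhibitory B cell coreceptor, was at 12.0 and 13.4 RPKM in cKO and at 9.55 and 9.89 RPKM in WT. Ralgps2, an exchange factor for Ral GTPases, was at 5.60 and 5.62 RPKM in cKO and at 5.84 and 6.39 RPKM in WT. The remaining list genes did not all follow Cd79b. Blk, a kinase downstream of the B cell receptor, averaged 0.157 RPKM over the 4 libraries and Cr2, a complement receptor, 0.0789 RPKM. Both were chosen for mention after their values were seen. The other 6 genes of the list were not analysed here.

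The class II genes split by level. The invariant chain Cd74 (chromosome 18, 60803849 to 60812652), which escorts class II molecules to the endosome, was at 29.6 and 30.7 RPKM in cKO and at 28.7 and 25.0 RPKM in WT. Its mean lay above that of 84.9% of genes. The chains that hold the peptide were far lower: Cd74 was 16.0 and 29.1 times H2-Aa in cKO and 23.9 and 26.9 times H2-Aa in WT. H2-Aa (chromosome 17, 34282744 to 34287823), the alpha chain of I-A, was at 1.85 and 1.06 RPKM in cKO and at 1.20 and 0.928 RPKM in WT.

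H2-Ab1 (chromosome 17, 34263227 to 34269418), the beta chain of I-A, was at 2.62 and 1.06 RPKM in cKO and at 1.80 and 1.31 RPKM in WT. H2-Eb1 (chromosome 17, 34305867 to 34316674), the beta chain of I-E, for which C57BL/6 mice lack a functional alpha chain, was at 1.25 and 0.704 RPKM in cKO and at 0.829 and 0.845 RPKM in WT. These 3 chains were highest in cKO replicate 1 and overlapped between genotypes, on 20 to 61 reads per value. Their sum was 5.71 and 2.82 RPKM in cKO and 3.83 and 3.09 RPKM in WT, where the second cKO library was the lowest of the 4. The sum was 2.02 times as high in cKO replicate 1 as in cKO replicate 2. The ratio of group means was 1.23, and 0.817 without cKO replicate 1.

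Other genes of the pathway showed the same division. Ctss, the cathepsin that trims the invariant chain, was at 98.6 and 116 RPKM in cKO and at 102 and 110 RPKM in WT. H2-DMa, a chain of the peptide exchanger H2-DM, was at 29.6 and 26.8 RPKM in cKO and at 25.2 and 18.6 RPKM in WT, whereas its partners H2-DMb1 and H2-DMb2 averaged 0.370 and 0.495 RPKM over all libraries. H2-Ob, a chain of the H2-DM inhibitor H2-O, was at 14.4 and 15.6 RPKM in cKO and at 11.5 and 13.0 RPKM in WT. H2-Oa, the other H2-O chain, was at 14.4 and 11.9 RPKM in cKO and at 9.18 and 8.21 RPKM in WT. Ciita averaged 0.177 RPKM. Of 13 genes listed, 12 had a value and 8 were tested, with 0 called. The 8 include Cd74, H2-Aa and H2-Ab1, already reported above. The log2 fold change was above 0 for all 8, as for 59.2% of all genes. Its median was 0.25 over the 8 and 0.03 over all genes. Without cKO replicate 1, 6 of the 8 were above 0, against 60.7% of all genes. With median-of-ratios scaling 7 of 8 were above 0. That scaling shifted the median over all genes by -0.043, and the share of all genes above 0 under it was not computed. The H2-DM partners, H2-Oa and Ciita were chosen for mention after their values were seen.

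**Figure D2:**
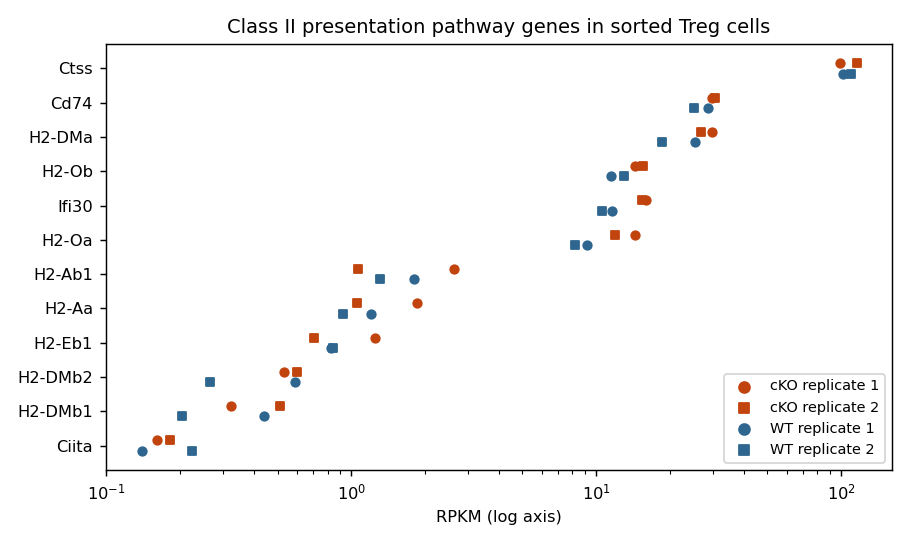
RPKM on a log axis for the 12 class II pathway genes with a value, ordered by mean, in cKO replicates 1 and 2 (orange circle and square) and WT replicates 1 and 2 (blue circle and square). Ctss, Cd74, H2-DMa, H2-Ob, Ifi30 and H2-Oa form an upper group, and the H2-A and H2-E chains, the H2-DM beta chains and Ciita lie below 3 RPKM.

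The macrophage genes were set apart by 1 library. C1qa (chromosome 4, 136895916 to 136898844), the A chain of C1q, was at 6.06 and 1.39 RPKM in cKO and at 1.42 and 2.27 RPKM in WT, on about 121 and 31 reads and 29 and 45 reads. Its means were 3.72 ± 3.30 RPKM in cKO and 1.84 ± 0.599 RPKM in WT (SD, n = 2 each). C1qb (chromosome 4, 136880126 to 136886200), the B chain, was at 4.90 and 1.64 RPKM in cKO and at 1.35 and 2.36 RPKM in WT, on about 102 and 38 reads and 29 and 49 reads. Csf1r (chromosome 18, 61105572 to 61131139) was at 3.07 and 0.971 RPKM in cKO and at 0.860 and 1.48 RPKM in WT, on about 229 and 80 reads and 65 and 110 reads. In each, cKO replicate 1 was highest and WT replicate 2 second, and the other two were low, so the genotypes overlapped. The high library exceeded every other by more than 2-fold for all 3, as it did for 0.281% of all genes tested and 0.775% of those at a mean of 1 to 4 RPKM. That 2-fold criterion was set after the values were seen. Over all 10 genes, 8 were highest in cKO replicate 1, against 29.4% of genes tested, and Cd22 and Cd74 were highest in cKO replicate 2, against 31.8%.

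Ratios between the macrophage genes varied less than the genes themselves. Csf1r over C1qb was 0.628 and 0.593 in the cKO libraries and 0.636 and 0.628 in the WT libraries, a spread of 1.07-fold, while C1qb itself varied 3.62-fold between libraries. C1qa over C1qb was 1.24 and 0.849 in cKO and 1.05 and 0.961 in WT. The set summed to 14.0 and 4.0 RPKM in cKO and to 3.63 and 6.11 RPKM in WT. The ratio of group means was 1.85, and without cKO replicate 1 it was 0.821, which is the opposite direction.

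**Figure D3:**
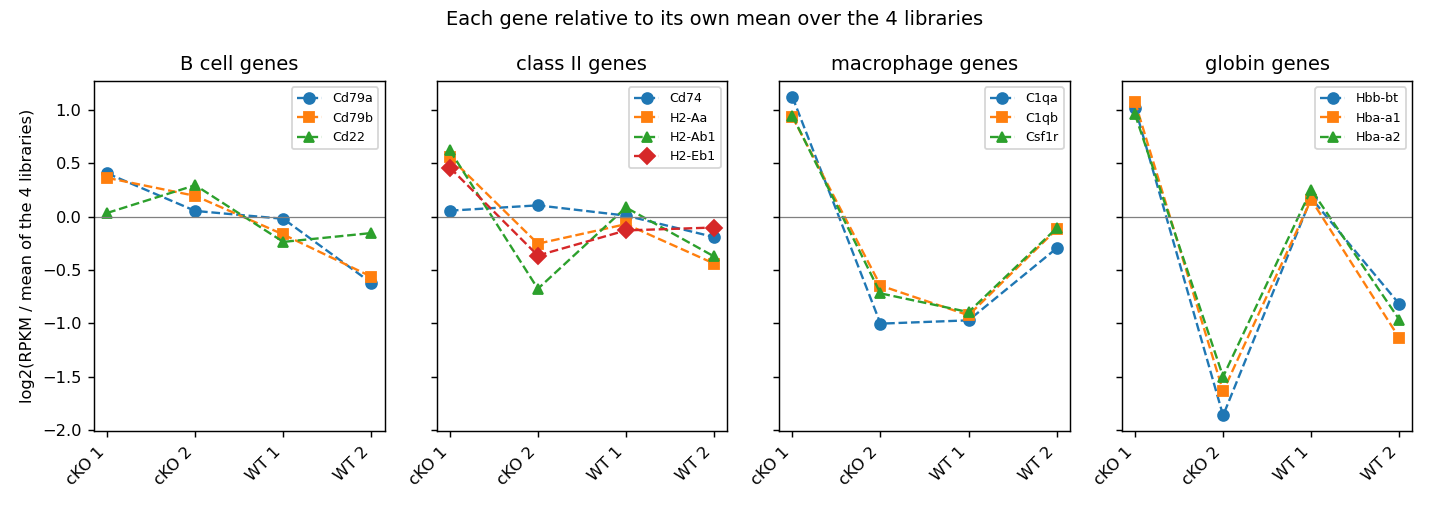
Log2 of RPKM over each gene's own mean across the 4 libraries, for the B cell, class II and macrophage sets and for 3 globin genes. Dashed lines only join the points of a gene, and libraries have no order. The B cell genes are lowest in the WT libraries, and the macrophage genes peak in cKO replicate 1 with WT replicate 2 second, whereas the globin genes peak in cKO replicate 1 with WT replicate 1 second.

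The macrophage list includes these 3 genes, so its counts are not independent of theirs. Most of its other members followed them. Of 23 genes listed, 22 had a value, 13 of them with a mean under 1 RPKM. Of the 22, 19 were highest in cKO replicate 1, against 29.4% of all genes tested, a share that leaves out genes under 1 RPKM. Within genotypes, 21 were higher in cKO replicate 1 than in cKO replicate 2, and 18 were higher in WT replicate 2 than in WT replicate 1. The share of all genes with either order was not computed. All 9 tested genes, C1qa, C1qb and Csf1r among them, were highest in cKO replicate 1, as were 27.5% of genes at a mean of 1 to 4 RPKM. With 4 libraries the log2 fold change was above 0 for 8 of the 9 (median 0.40) and 0 were called. Without cKO replicate 1 it was above 0 for 2 of 9, with a median of -0.23, against 60.7% of all genes. Without WT replicate 1 it was above 0 for 4 of 9, against 56.5% of all genes. The list summed to 58.2 and 28.3 RPKM in cKO and to 25.5 and 35.3 RPKM in WT. C1qc, the third C1q chain, was at 5.67 and 1.12 RPKM in cKO and at 1.94 and 2.82 RPKM in WT. Hmox1, the heme oxygenase that red pulp macrophages use to degrade heme, was at 6.11 and 2.51 RPKM in cKO and at 2.11 and 4.61 RPKM in WT.

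Members of the list differed in how far cKO replicate 1 stood out. Besides C1qa, C1qb and Csf1r it exceeded each other library by more than 2-fold for C1qc, Adgre1 (the F4/80 antigen), Mertk (a receptor for dying cells) and Aif1, among 8 genes in all. Adgre1, Mertk and Aif1 had means under 1 RPKM and were chosen for mention after their values were seen. Axl, a receptor tyrosine kinase of phagocytes and the highest gene of the list, went another way, at 14.1 and 12.9 RPKM in cKO and at 10.1 and 9.79 RPKM in WT. Lyz2, the lysozyme of myeloid cells, also singled out afterwards, was at 0.984 and 0.801 RPKM in cKO and at 1.07 and 1.09 RPKM in WT.

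**Figure D4:**
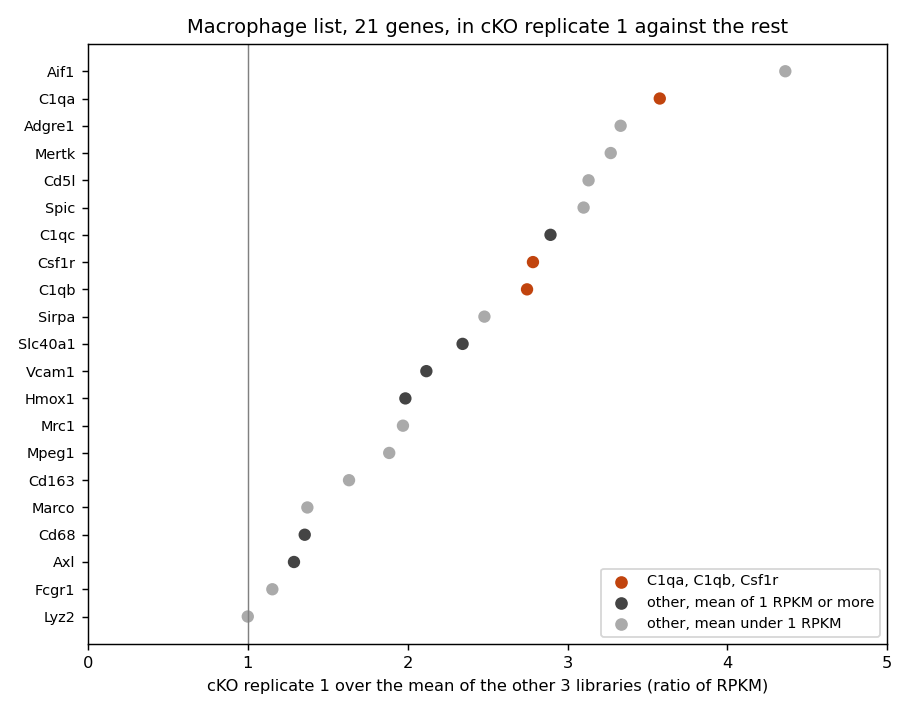
Ratio of RPKM in cKO replicate 1 to the mean of the other 3 libraries, for 21 macrophage list genes. The grey line is a ratio of 1, and C1qa, C1qb and Csf1r (orange) lie at 3.58, 2.75 and 2.78.

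The B cell and macrophage sets differed in their pattern across libraries. The macrophage sum over the B cell sum was 1.20 and 0.370 in cKO and 0.429 and 0.902 in WT. The B cell sum differed 1.73-fold between its highest and lowest library and the macrophage sum 3.86-fold. WT replicate 2 had the lowest B cell sum and the second highest macrophage sum. The 3 class II chains followed neither set closely: over the B cell sum they were 0.488 and 0.261 in cKO and 0.453 and 0.455 in WT, and over the macrophage sum 0.407 and 0.706 in cKO and 1.06 and 0.505 in WT. No test was made of these ratios. With 2 libraries in each group the smallest two-sided exact permutation p is 0.333.

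Red blood cell transcripts were also highest in cKO replicate 1. Of 14 erythroid and platelet genes listed, 8 had a value and 7 of these were highest in that library, against 29.4% of all genes tested. That share leaves out genes with a mean under 1 RPKM, which 3 of the 8 had. The list summed to 46.5 and 8.73 RPKM in cKO and to 27.1 and 13.2 RPKM in WT. Hba-a1, an alpha globin, was at 18.1 and 2.78 RPKM in cKO and at 9.63 and 3.92 RPKM in WT, and Hbb-bt (listed as Hbb-b1), a beta globin, was at 11.6 and 1.58 RPKM in cKO and at 6.47 and 3.25 RPKM in WT. Globin genes have near-identical copies, so their single values are uncertain. In the WT pair the order was the reverse of that of the macrophage genes: 0 of 8 erythroid and 18 of 22 macrophage genes were higher in WT replicate 2. The share of all genes higher in that library was not computed. In all 5 tested erythroid genes the log2 fold change was above 0, as in 59.2% of all genes. The estimates ran from 0.01 to 0.23, with standard errors from 0.24 to 0.94. With median-of-ratios scaling 3 of 5 were above 0, and the matching share of all genes was not computed. Without cKO replicate 1 it was 0 of 5, against 60.7% of all genes. The part of red blood cell RNA in the macrophage result was not tested.

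The remaining lists ranged from almost no RNA for dendritic cells, monocytes and neutrophils to higher sums for CD8 T and NK cell, plasma cell, and stroma and endothelium genes. Those higher sums rest mostly on a few genes, and lists differ in length, so they are not set against the B cell set. The dendritic cell list (4 of 9 genes with a value) summed to 0.887 and 0.900 RPKM in cKO and to 0.834 and 1.06 RPKM in WT, with Zbtb46, Xcr1 and Siglech its highest genes. In the monocyte and neutrophil list, 1 of 11 genes had a value, Csf3r at 0.355 and 0.321 RPKM in cKO and at 0.410 and 0.124 RPKM in WT. CD8 T and NK cell genes summed to 23.0 and 24.5 RPKM in cKO and to 25.1 and 22.4 RPKM in WT, led by Nkg7, Cd8b1 and Prf1. The other genes of that list with a value, named after their values were seen, were low. Eomes averaged 1.02 RPKM, Cd8a 0.283, Klrb1c 0.456 and Klrk1 0.154 RPKM. Which cells the reads of this list came from was not tested. Plasma cell genes were led by Xbp1 and Prdm1, which T cells also express, with Jchain at 0.230 RPKM on average. Stroma and endothelium had Pecam1, also made by T cells, at 42.1 RPKM on average, and Col1a1 and Col1a2 at 0.304 and 0.128 RPKM. None of the genes listed with a value was at 0 in every library, but this held for every deposited row and tells nothing about a cell type.

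Across all genes no difference between genotypes was called. Over the 10688 genes that reached 1 RPKM on average, limma on log2(RPKM + 1) called 0 (0.00%) at an adjusted p of 0.05, and 332 (3.11%) had an unadjusted p under 0.05. Of the 10 genes, 9 were tested and 0 were called. The log2 fold change was above 0 in all 9 and its median was 0.30, where 59.2% of all genes were above 0. For 4 of the 9, Cd79a, Cd79b, Cd22 and Cd74, the cKO pair was above the WT pair, against 17.4% of all genes and 20.5% of those at a mean of 1 to 4 RPKM. The lowest cKO and highest WT values of Cd74 were 29.6 and 28.7 RPKM, with counting errors of 3.79% and 3.82%. Those of Cd22 were 1.92 and 1.68 RPKM, with counting errors of 9.17% and 9.81%. H2-Eb1, with a mean of 0.906 RPKM, was just outside the limit and H2-Aa, with 1.26 RPKM, just inside. In a fit with no limit the log2 fold change of H2-Eb1 was 0.09 (limma, adjusted p = 0.999).

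Cd79b had the lowest p of the 9, with a log2 fold change of 0.55 and a standard error of 0.17 (limma, unadjusted p = 0.0172, adjusted p = 0.9998). The log2 fold change of C1qa was 0.55 with a standard error of 0.50 (limma, adjusted p = 0.9998), a larger error for a like estimate. Leaving out cKO replicate 1 left 4 of the 9 above 0, which were Cd79a, Cd79b, Cd22 and Cd74. C1qa was then at -0.23, C1qb at -0.09, Csf1r at -0.12 and H2-Ab1 at -0.30. Leaving out cKO replicate 2, so that cKO replicate 1 alone stood for the genotype and was assumed to vary like the WT pair, gave C1qa a log2 fold change of 1.33 with an adjusted p of 0.00018 (limma), C1qb 1.07 with 0.00836 and Csf1r 0.92 with 0.0397. That fit called 60 of 10688 genes, or 0.561%. C1qc was the only other macrophage list gene called in that fit (limma, adjusted p = 0.0170).

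**Figure D5:**
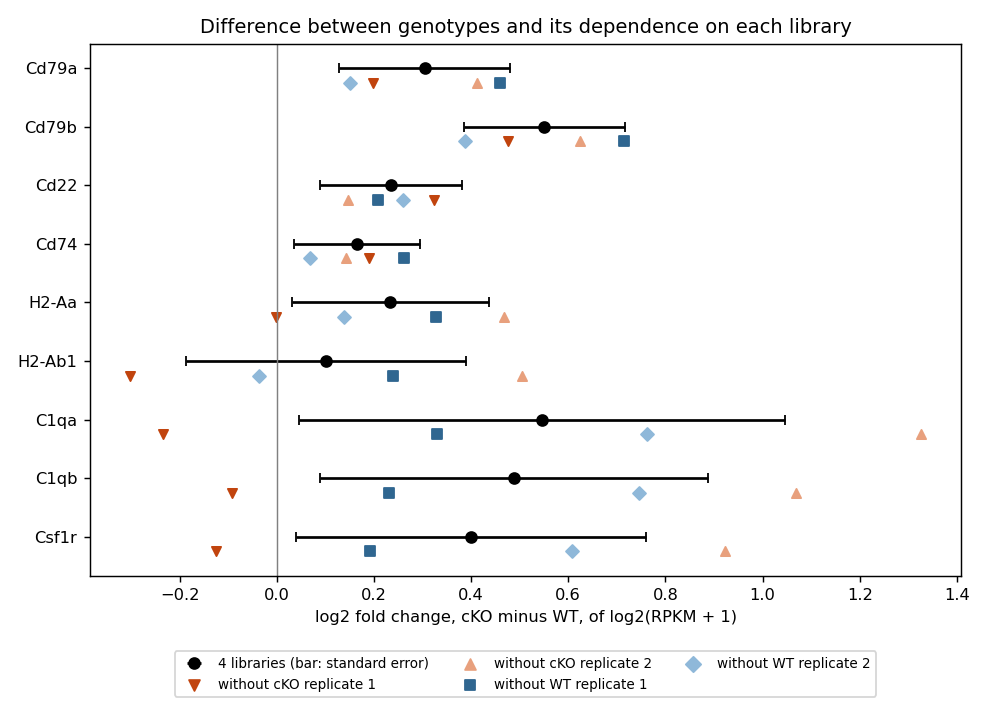
Log2 fold change, cKO minus WT, of log2(RPKM + 1) for the 9 genes tested. Black points with bars are estimates and standard errors from 4 libraries, and coloured symbols are estimates with 1 library left out. Without cKO replicate 1 the B cell genes and Cd74 stay above 0, and C1qa, C1qb and Csf1r lie below 0.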

How the data were processed

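RNA-seq was measured in 4 libraries, 2 cKO and 2 WT, grouped by the labels' titles. The authors deposited RPKM per RefSeq transcript, a unit inferred from the size of the values. Per the submitters' processing notes, HISAT2 and DESeq2 were among the tools and mm10 was the build, without versions or roles. The sources used here do not give the use of strand or the sharing of reads between transcripts. Reads were short and single-ended, per the labels' protocols.

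Of 19291 rows, 16720 were named by accession and 910 by name from a RefSeq table of GRCm38.p6, and 492 kept the file's name. Another 1169 rows, with 10.9% of RPKM, had no gene name and stayed out. For each gene the row of highest mean was used. Read numbers were estimated from steps between low RPKM values with GENCODE M21 transcript lengths, which can differ from those the authors used, and cover counting error only. Of 40 values of the 10 genes, 20 lay within 0.2 of a whole read, where 40% would by chance. The read numbers of these genes are therefore approximate.

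Genotypes were compared two-sided in limma 3.58.1 under R 4.3.3, fitted to log2(RPKM + 1) with robust and trended moderation. A mean of 1 RPKM was required and p-values were adjusted by Benjamini-Hochberg. The script was tested on simulated data. This scale understates changes of low genes. Tables were handled with Python 3.11.15 and pandas 2.3.3, and figures drawn with matplotlib 3.10.9. Pseudocount, filter, scaling, transcript choice, replicate block and left-out libraries were varied. The genes and lists were chosen with earlier results of these data known. The rule named the 10 genes, Nsd2, up to 3 further genes of highest mean in each list and the 5 genes of most similar profile. Some list genes are not reported here. Shares at 1 to 4 RPKM and list counts without single libraries were added after seeing the data.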

Additional observations from a re-analysis of the deposited data

How the results depend on the processing

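Of 81 alternative fold changes of the 9 tested genes, 75 kept their direction and 6 reversed, all with 1 library left out (5 without cKO replicate 1, and H2-Ab1, at -0.038, without WT replicate 2). With a library left out the log2 fold changes ranged from -0.23 to 1.33 for C1qa, from -0.091 to 1.07 for C1qb, from -0.12 to 0.92 for Csf1r, from -0.30 to 0.51 for H2-Ab1 and from -0.0022 to 0.47 for H2-Aa. Those of Cd79b (0.39 to 0.71), Cd79a (0.15 to 0.46), Cd22 (0.15 to 0.32) and Cd74 (0.07 to 0.26) stayed above 0. Genes called over the whole table numbered 0 with all libraries and 21 to 66 with 1 left out. The ratio of cKO to WT ranged from 0.821 to 2.88 for the macrophage sum and from 0.555 to 1.83 for macrophage over B cell, both lowest without cKO replicate 1. It was 1.06 in place of 1.48 for the B cell sum over the whole list, which Ighm dominates. With the replicate number as a block 1 gene was called, Cxcr4 (limma, adjusted p = 0.0471, named after its value was seen), and 0 of the 9. The labels do not pair the libraries by number, although the differences of replicate 1 from 2 correlated between genotypes (r = 0.51 over 10688 genes). The H2 chains rest on few reads, which limits their precision. H2-Eb1 was not tested in the fits with a library left out. The cause of these changes was not tested.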

Other observations

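The immunoglobulin constant regions Ighm and Igkc overlapped between genotypes, whereas in Ighd, as in Cd79b, the cKO pair was above the WT pair. Ighm, the mu heavy chain (listed as Igh-6), was at 271 and 243 RPKM in cKO and at 291 and 204 RPKM in WT, above 99.1% of genes by its mean. Igkc, the kappa light chain, was at 3.41 and 2.79 RPKM in cKO and at 6.89 and 2.94 RPKM in WT. Igkc over Cd79b was 0.425 and 0.391 in cKO and 1.24 and 0.695 in WT. Ighd, the delta heavy chain, was at 1.84 and 3.0 RPKM in cKO and at 1.27 and 1.48 RPKM in WT. Igkc and Ighd were chosen after their values were seen, and values of such segments are uncertain since the sharing of reads is not stated.

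Profiles were compared by the largest difference, over the 4 libraries, in log2 of RPKM over the gene's own mean. Among 10642 other genes, Slpi, a secreted protease inhibitor, was nearest to the macrophage sum (0.19). Traj56, Vcam1, Mirlet7g and Mir26b followed (0.40 for the last), and 1 gene was as close as C1qa (0.21), the farthest of its set. Vcam1, an adhesion molecule of red pulp macrophages, was at 3.35 and 1.13 RPKM in cKO and at 1.36 and 2.26 RPKM in WT. For the B cell sum, Mx1, Gpr55, Snora16a, Chaf1a and Ptgir were nearest (0.05 to 0.07), and 1538 genes were as close as Cd22 (0.33), its farthest member. The class II sum, dominated by Cd74, differed 1.26-fold between its highest and lowest library, and Mgrn1, Atp5e, Zmat2, Pnp and Selenoh were nearest. Its farthest member H2-Ab1 lay 0.73 away, and 10318 genes were as close. The counts of genes as close as a farthest member use a different distance for each set and cannot be compared. Each member is also part of the sum it was measured against.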
